A study of Mus musculus with 26 samples.

Results

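Cytoplasmic ribosomal proteins are the proteins of the ribosome that works in the cytoplasm, each encoded by its own nuclear gene. Their genes were taken from the GENCODE M21 annotation of the mouse genome as protein-coding genes whose symbol is Rpl or Rps followed by a number (with an a, x, y or l where there is one), together with Rplp0, Rplp1, Rplp2 and Rpsa. The rule found 83 genes, of which 77 had values among the 17516 genes measured in the series. All 77 were present in sorted cells (46 of the large and 31 of the small subunit), and 76 in tumours (45 and 31), where Rpl3l had no row. Rpl10l, Rpl39l and the X-linked Rpl10, Rpl36a, Rpl39 and Rps4x were not analysed here.

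The libraries came from KPC mice, a model of pancreatic ductal adenocarcinoma that by its usual definition carries conditional mutant alleles switched on by a Cre recombinase active in the pancreas. The labels name only KPC, so all groups share that background, and give neither age nor sex. Treated animals received GS9820 for 14 days, a compound that blocks p110δ, among the catalytic forms of phosphoinositide 3-kinase (PI3K) and mostly found in leukocytes, and control animals received vehicle with no day stated. Whole tumours gave 5 treated and 7 vehicle libraries. Monocytes sorted from the spleen gave 4 treated and 3 vehicle libraries. Polymorphonuclear cells sorted from the spleen (PMN, by the usual definition mainly neutrophils) also gave 4 treated and 3 vehicle libraries. The labels do not say whether each library is a separate animal, so p-values measure the spread between these libraries only.

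A ribosome holds a single copy of most of these proteins, a small subunit that reads the mRNA and a large subunit that joins amino acids, and cells therefore make them in step. Their mRNAs usually begin with a C followed by a run of pyrimidines, the 5′ terminal oligopyrimidine (TOP) tract, through which the kinase mTORC1, downstream of PI3K, controls how strongly they are translated. The data here are mRNA levels and do not report translation. Developing myeloid cells are known to be rich in ribosomes, and neutrophils lose much of this machinery as they mature.

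RefSeq start windows (GRCm38.p6) were available for 57 of the 77 genes. At an annotated start, 13 of these genes had a C followed by at least 4 pyrimidines on the sense strand, 22.8% of them, against 3.01% of all 27025 genes with a window. A gene counted where any of its windows held the tract, and a start annotated a few bases away hides it. The windows below run over 30 bases, 10 before the annotated start and 20 from it on, with the tract in capitals, and show genes with the tract and the paralogue or outlying genes described below. Where no tract is met, only the base at the annotated start is in capitals.
Rps6 (chr4:86857348-86857377, minus strand): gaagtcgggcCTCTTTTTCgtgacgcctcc
Rps18 (chr17:33955646-33955675, minus strand): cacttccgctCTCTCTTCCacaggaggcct
Rpl28 (chr7:4792955-4792984, plus strand): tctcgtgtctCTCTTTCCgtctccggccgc
Rpl15 (chr14:18270967-18270996, minus strand): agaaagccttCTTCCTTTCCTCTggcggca
Rps27 (chr3:90213629-90213658, minus strand): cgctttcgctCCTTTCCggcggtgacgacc
Rps27l (chr9:66946076-66946105, plus strand): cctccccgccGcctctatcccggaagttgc
Rpl22l1 (chr3:28805498-28805527, plus strand): gcgcaagcccGttctcttcccacggctgca
Rpl7l1 (chr17:46782637-46782666, minus strand): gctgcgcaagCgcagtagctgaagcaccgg
Rpl3l (chr17:24727816-24727845, plus strand): ttctagctctGtcatttgacctctggtgcc
Rps9 (chr7:3704031-3704060, plus strand): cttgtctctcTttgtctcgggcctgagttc
Rps3a1 (chr3:86142649-86142678, minus strand): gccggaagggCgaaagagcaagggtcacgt
Rpl34 (chr3:130730318-130730347, minus strand): cttttcctctTccggggacggtgctcagag
Rpl15 had the longest tract of those shown, 13 bases, and Rps6 and Rps18 had 9. Rps9 and Rpl34 had pyrimidines on both sides of a start that is annotated at a T. The paralogues Rps27l and Rpl22l1 had a G at the start shown with a pyrimidine run just after it, and Rpl3l and Rpl7l1 had no such run there. Rps27l, Rpl3l and Rpl34 each had 2 windows without the tract, of which only the first by position is shown.

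Each library came with a log2 value per gene, under the authors' name log2 RPKM, for 16322 genes per tumour library and 14131 per sorted-cell library. Libraries of a set share nearly the same distribution, so depth is unknown. Levels of tumours and sorted cells were scaled apart and were compared only in the order of the genes. PMN markers (13 of 13 measured) averaged 8.43 to 10.7 in monocyte libraries and 11.95 to 12.4 in PMN libraries. Ly6g, the antigen that defines PMN, averaged 6.72 in treated and 6.94 in vehicle monocytes and 9.47 in treated and 9.45 in vehicle PMN, so it was not absent from the monocyte libraries. Monocyte markers (10 of 10) averaged 8.86 to 10.4 in monocytes and 6.71 to 7.54 in PMN. Single markers did not all follow these averages. At an adjusted p under 0.05 (limma), 9 of 13 PMN markers were lower in monocytes in treated mice and 7 in vehicle mice, with 0 higher. Of 10 monocyte markers, 9 and 8 were higher in monocytes and 1 was lower in each. Over all genes tested, 37.6% were higher and 32.1% lower in treated mice, and 32.8% and 27.2% in vehicle mice. The vehicle libraries numbered 3, of monocytes and of PMN, stand apart from the other sorted libraries in sequence copies of Rps3a1 and Rpl34 (below). The main family medians that use them, the vehicle-mouse counts and the Rps9 call are given with and without them. Other values of vehicle sorted cells, the order of single genes among them, include both.

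Monocytes were first compared with PMN, the other sorted population of the spleen, and carried more of nearly every mRNA of the family. In treated mice 76 of the 77 genes were higher in monocytes and 1 was lower, against 37.6% higher and 32.1% lower among the 13968 genes tested (limma, Benjamini-Hochberg adjusted p under 0.05). In vehicle mice the counts were again 76 higher and 1 lower, against 32.8% and 27.2% of all genes. The gene that was lower was Rpl3l in both. All 77 genes passed the filter on low values (3 or more libraries at 0 or above on the log2 scale). Rpl3l did so only through the PMN libraries, where it was higher, so its call is given as a value only.

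The median log2 difference, monocyte minus PMN, was 1.80 in treated mice, which is 3.48-fold, and 1.74 in vehicle mice, which is 3.34-fold. Over all genes tested the medians were 0.07 and 0.07. Without both libraries numbered vehicle 3 the vehicle-mouse median was 1.48, with 75 genes higher and 1 lower. Groups did not overlap for any of the 77 genes in treated or in vehicle mice, a state met by 37.4% of genes higher and 32.1% lower in treated mice and by 32.4% and 27.1% in vehicle mice.

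Monocyte libraries had medians of 9.98, 10.09, 9.84 and 9.92 in treated mice and 10.03, 9.85 and 10.12 in vehicle mice. PMN libraries had 7.96, 8.28, 7.83 and 8.30 in treated mice and 8.27, 8.39 and 7.86 in vehicle mice. The lowest monocyte median thus stood above the highest PMN median, and within PMN treated libraries 1 and 3 and vehicle library 3 were lower than the other 4. After reversal of the log2, the family made up 5.70% to 6.78% of a monocyte library's summed values and 1.57% to 2.12% of a PMN library's. The family's median gene ranked between 184 and 234 among all genes of a monocyte library, against 760 to 1175 in PMN. In libraries of pooled cells, fewer cells of a type and less RNA per cell cannot be told apart.

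**Figure D1:**
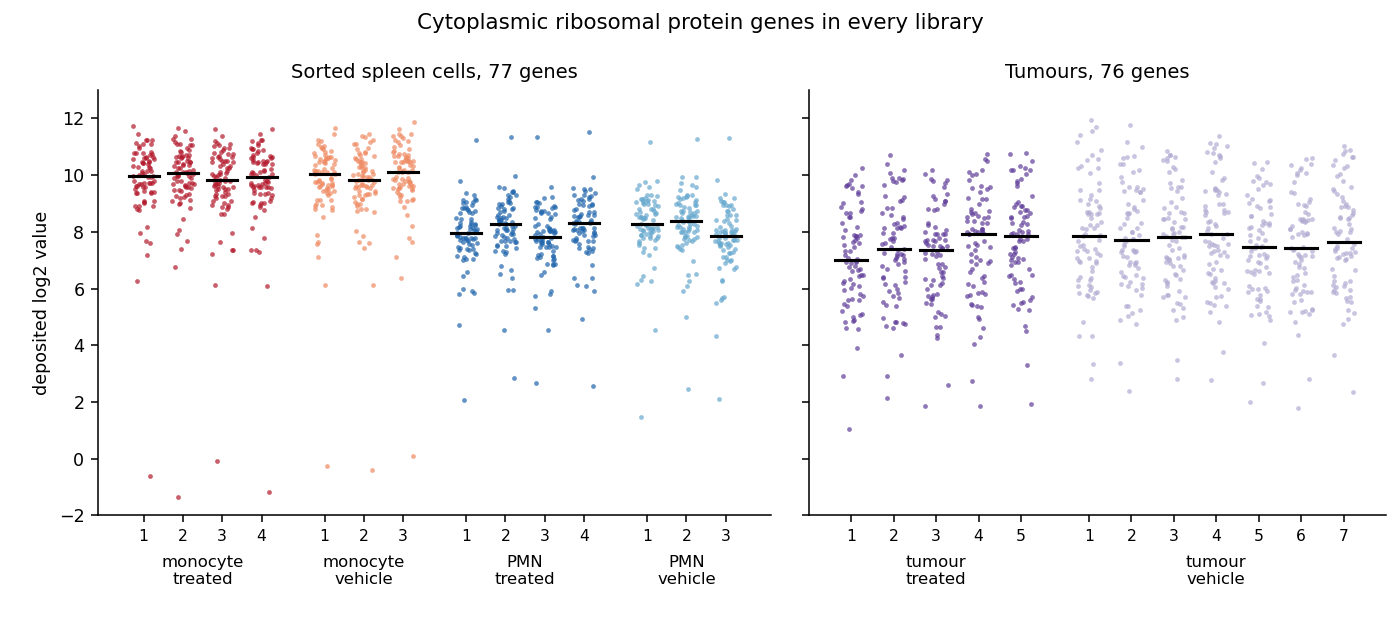
Deposited log2 value of each cytoplasmic ribosomal protein gene (points) in every library, with the library's median over the genes as a black line; sorted spleen cells on the left, tumours on the right, numbers are the libraries of a group. Monocyte medians lie between 9.84 and 10.12 and PMN medians between 7.83 and 8.39, and the point far below the rest in the sorted cells is Rpl3l.

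Markers of dividing and of immature cells moved with this difference. Proliferation genes (12 of 12 measured) averaged 6.83 to 8.47 in monocyte libraries and 4.55 to 5.26 in PMN libraries. Neutrophil precursor markers (6 of 6), led by Mpo, averaged 7.93 to 10.1 in monocytes and 3.02 to 5.52 in PMN. Neither list's range overlapped between the populations. Lymphocyte markers lay on the other side: B cell markers (5 of 5) averaged 2.12 to 3.58 in monocytes and 4.06 to 5.15 in PMN, without overlap. NK cell markers (5 of 5) averaged 1.42 to 3.55 in monocytes and 1.55 to 6.83 in PMN, and T cell markers (6 of 6) 0.46 to 3.57 in monocytes and 2.32 to 3.91 in PMN, both with overlap. The part of these lists in the result was not tested.

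The subunits differed little from each other. The median difference over the 31 small-subunit genes was 1.89 in treated and 1.80 in vehicle mice, and over the 46 large-subunit genes 1.76 and 1.73. Of the 77 genes, 25 had a difference above 2 in treated mice and 14 in vehicle mice, 48 and 59 lay between 1 and 2, and 3 lay between 0 and 1 in each. The order of the genes was alike in both kinds of mice, which share no library (Spearman correlation across the 77 genes 0.93, a description), and 6 of the 8 largest differences were the same genes.

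Rpl3, a large-subunit protein near the site where peptide bonds form, had the largest difference. Its values were 10.44, 10.62, 10.46 and 10.47 in treated monocytes and 7.86, 7.96, 7.58 and 8.30 in treated PMN. In vehicle mice they were 10.46, 10.44 and 10.76 in monocytes and 8.46, 8.57 and 7.62 in PMN. Every monocyte library was more than 1 log2 unit above every PMN library. The difference was 2.57 ± 0.20 (SE, n = 4 against 4) in treated mice (limma, adjusted p = 3.18e-07), a 5.95-fold difference, and 2.34 ± 0.23 (n = 3 against 3) in vehicle mice (adjusted p = 4.49e-06), 5.05-fold.

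Rpsa, the small-subunit protein also known as the laminin receptor, came next in vehicle mice. Its values were 11.26, 11.27, 11.20 and 11.26 in treated monocytes and 8.76, 9.01, 8.63 and 8.98 in treated PMN. Monocyte values spanned less than 0.2 and PMN values were all lower. The difference was 2.40 ± 0.17 in treated and 2.33 ± 0.20 in vehicle mice (limma, adjusted p = 1.98e-07 and 1.93e-06). Rpl10a, a protein of the L1 stalk at the exit for used tRNA, stood at 2.53 ± 0.19 and 2.26 ± 0.22. Rps18, in the head of the small subunit, differed by 2.38 ± 0.18 in treated and 2.25 ± 0.21 in vehicle mice. Also among the 8 largest were Rps2, Rpl13 and Rpl32 in treated mice, at 2.31, 2.29 and 2.26, and Rps28, Rpl32 and Rpl13 in vehicle mice, at 2.24, 2.23 and 2.13.

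**Figure D2:**
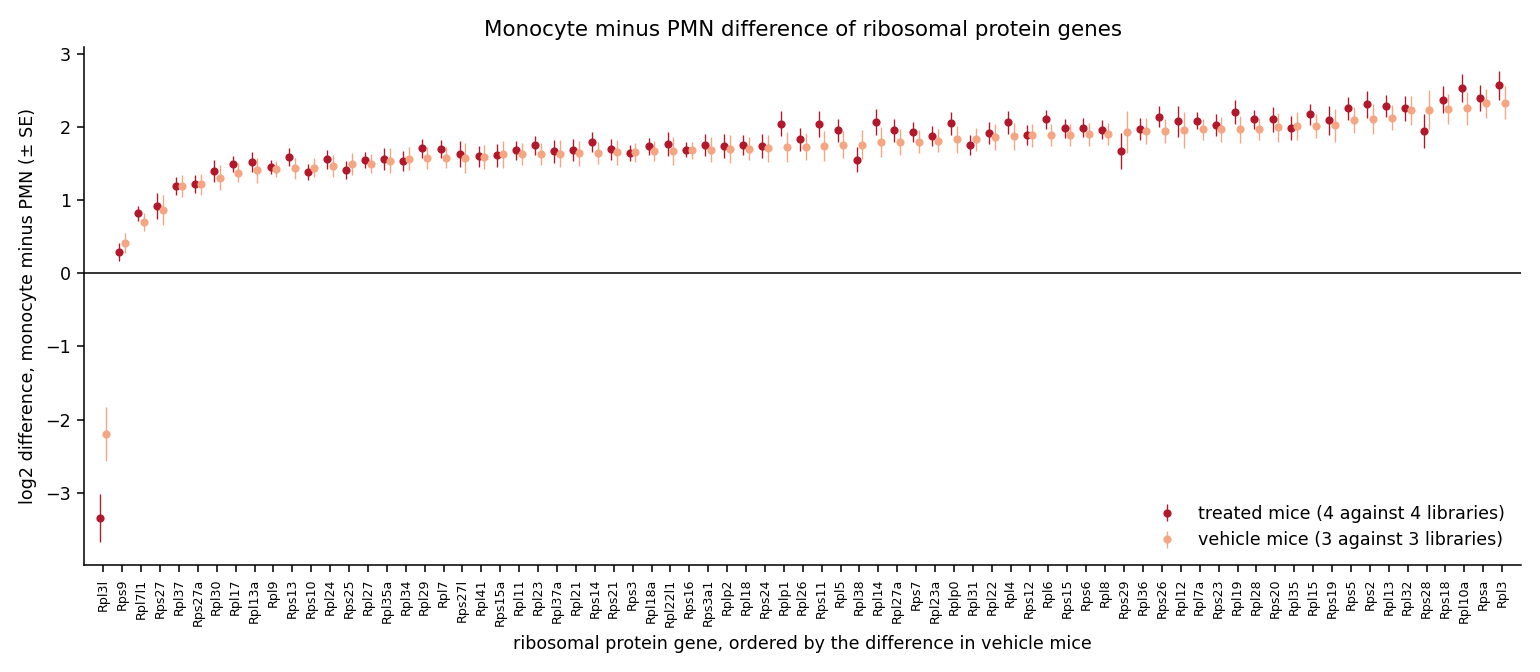
Log2 difference, monocyte minus PMN, of ribosomal protein genes with its SE (genes not reported by name are left out), in treated mice (dark) and in vehicle mice (light), genes ordered by the vehicle-mouse difference. Rpl3l lies below 0 in both, Rps9, Rpl7l1 and Rps27 lie between 0 and 1, and the rest shown lie between 1 and 2.57.

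The proteins of the P stalk, which recruits elongation factors to the large subunit, were higher in monocytes in both kinds of mice. Rplp0, its base, had 11.46, 11.55, 11.37 and 11.44 in treated monocytes and 9.30, 9.59, 9.18 and 9.53 in treated PMN, with no overlap. Its difference was 2.05 ± 0.16 in treated and 1.83 ± 0.18 in vehicle mice (limma, adjusted p = 3.15e-07 and 5.05e-06). Rplp1 and Rplp2, the acidic proteins of the stalk, differed by 2.05 and 1.74 in treated mice and by 1.73 and 1.70 in vehicle mice. Rpl12, at the foot of the stalk, differed by 2.08 in treated and 1.96 in vehicle mice.

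Proteins that bind Mdm2, the ubiquitin ligase of p53, when ribosome assembly fails showed the same direction. Rpl5, which with Rpl11 and 5S ribosomal RNA forms the complex that inhibits Mdm2, had 10.32, 10.36, 10.24 and 10.39 in treated monocytes and 8.32, 8.37, 8.06 and 8.72 in treated PMN. It differed by 1.96 ± 0.16 in treated and 1.76 ± 0.19 in vehicle mice (limma, adjusted p = 4.99e-07 and 7.60e-06). Rpl11 differed by 1.69 and 1.63, Rpl23 by 1.75 and 1.63, and Rpl26, which in human cells also binds the p53 mRNA, by 1.83 and 1.73. Rps6, the protein phosphorylated by S6 kinases below PI3K and mTORC1, differed by 2.00 ± 0.14 in treated and 1.90 ± 0.16 in vehicle mice (limma, adjusted p = 1.40e-07 and 1.61e-06).

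Rps9, a small-subunit protein, was the gene with the highest level in sorted cells and had the smallest difference of the genes that were higher. Its values were 11.75, 11.65, 11.61 and 11.61 in treated monocytes and 11.24, 11.34, 11.35 and 11.51 in treated PMN. In vehicle mice they were 11.68, 11.46 and 11.87 in monocytes and 11.18, 11.27 and 11.30 in PMN. The groups did not overlap, but the nearest libraries were about 0.1 apart in treated mice. The difference was 0.29 ± 0.12 in treated mice (limma, adjusted p = 0.0457) and 0.41 ± 0.14 in vehicle mice (adjusted p = 0.0224).

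The call on Rps9 did not hold without single libraries. In treated mice the adjusted p ran from 0.0524 to 0.116 without treated monocytes 1, 2, 3 or 4, treated PMN 1, 2 or 3, vehicle monocytes 1 or vehicle PMN 1 or 2 (the vehicle libraries enter through the shared spread). In vehicle mice it ran from 0.0533 to 0.0757 without vehicle monocytes 1 or 3 or vehicle PMN 1, and was 0.0791 without both vehicle 3 libraries. Of the genes on either side of Rps9, 1 was higher in PMN and the other higher on average in monocytes. Pirb, a myeloid inhibitory receptor, averaged 10.8 ± 0.12 in treated monocytes and 11.7 ± 0.07 in treated PMN (SD, n = 4 each). Tsen34, a subunit of the tRNA splicing enzyme, averaged 5.95 ± 0.07 in treated monocytes and 5.83 ± 0.14 in treated PMN. In vehicle mice it averaged 6.06 ± 0.05 in monocytes and 5.81 ± 0.06 in PMN (SD, n = 3 each), without overlap.

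Rps27, a zinc-finger protein of the small subunit, had 10.16, 10.36, 10.06 and 10.20 in treated monocytes and 9.12, 9.42, 9.02 and 9.51 in treated PMN. It was higher in all monocyte libraries, by 0.93 ± 0.18 in treated and 0.87 ± 0.20 in vehicle mice (limma, adjusted p = 0.000476 and 0.00281). Rps27a, made as a fusion with ubiquitin, differed by 1.22 in treated and 1.22 in vehicle mice, and Rpl37, a zinc-finger protein of the large subunit, lay just below it in both.

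Paralogues are second genes for a ribosomal protein, often with a narrower pattern of expression. Of the 4 paralogues measured, 3 went with their partners and Rpl3l went the other way. Rpl22l1, the paralogue of Rpl22, had 7.62, 7.68, 7.38 and 7.36 in treated monocytes and 5.79, 5.96, 5.31 and 5.91 in treated PMN, without overlap. It differed by 1.77 ± 0.16 in treated and 1.68 ± 0.19 in vehicle mice (limma, adjusted p = 1.25e-06 and 1.18e-05), and Rpl22 by 1.92 and 1.87. Rps27l, a target of p53 in human cells, differed by 1.64 ± 0.18 and 1.58 ± 0.20, more than Rps27 itself. Rpl7l1, the paralogue of Rpl7, had 7.18, 7.40, 7.24 and 7.30 in treated monocytes and 6.44, 6.53, 6.48 and 6.38 in treated PMN, also without overlap. It differed by 0.82 ± 0.10 in treated and 0.70 ± 0.12 in vehicle mice (limma, adjusted p = 1.82e-05 and 0.000305), against 1.70 and 1.58 for Rpl7. Whether a paralogue's difference departs from its partner's was not tested.

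Rpl3l, the paralogue of Rpl3 known from skeletal muscle and heart, was at the bottom of the measured range. Its values were -0.62, -1.36, -0.08 and -1.19 in treated monocytes and 2.07, 2.83, 2.67 and 2.58 in treated PMN. In vehicle mice they were -0.27, -0.40 and 0.10 in monocytes and 1.46, 2.47 and 2.09 in PMN. PMN libraries were the higher ones throughout, and it was through them that the gene passed the filter on low values. The difference was -3.35 ± 0.32 in treated mice (limma, adjusted p = 1.87e-06) and -2.20 ± 0.37 in vehicle mice (adjusted p = 0.000286).

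Rpl3l ends 498 bases before the start of Msrb1, a methionine sulfoxide reductase gene on the same strand of chromosome 17 (Rpl3l at 24727820 to 24736143 in GRCm38). Msrb1 averaged 9.19 ± 0.19 in treated monocytes and 10.6 ± 0.10 in treated PMN (SD, n = 4 each), and 9.29 ± 0.16 in vehicle monocytes and 10.4 ± 0.23 in vehicle PMN (SD, n = 3 each). It was thus also higher in PMN, and its part in the Rpl3l values was not tested; the labels do not give strand use for the sorted cells. Ndufb10, the gene on the other side, was higher in monocytes, at 7.21 ± 0.11 in treated monocytes and 5.84 ± 0.09 in treated PMN.

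**Figure D3:**
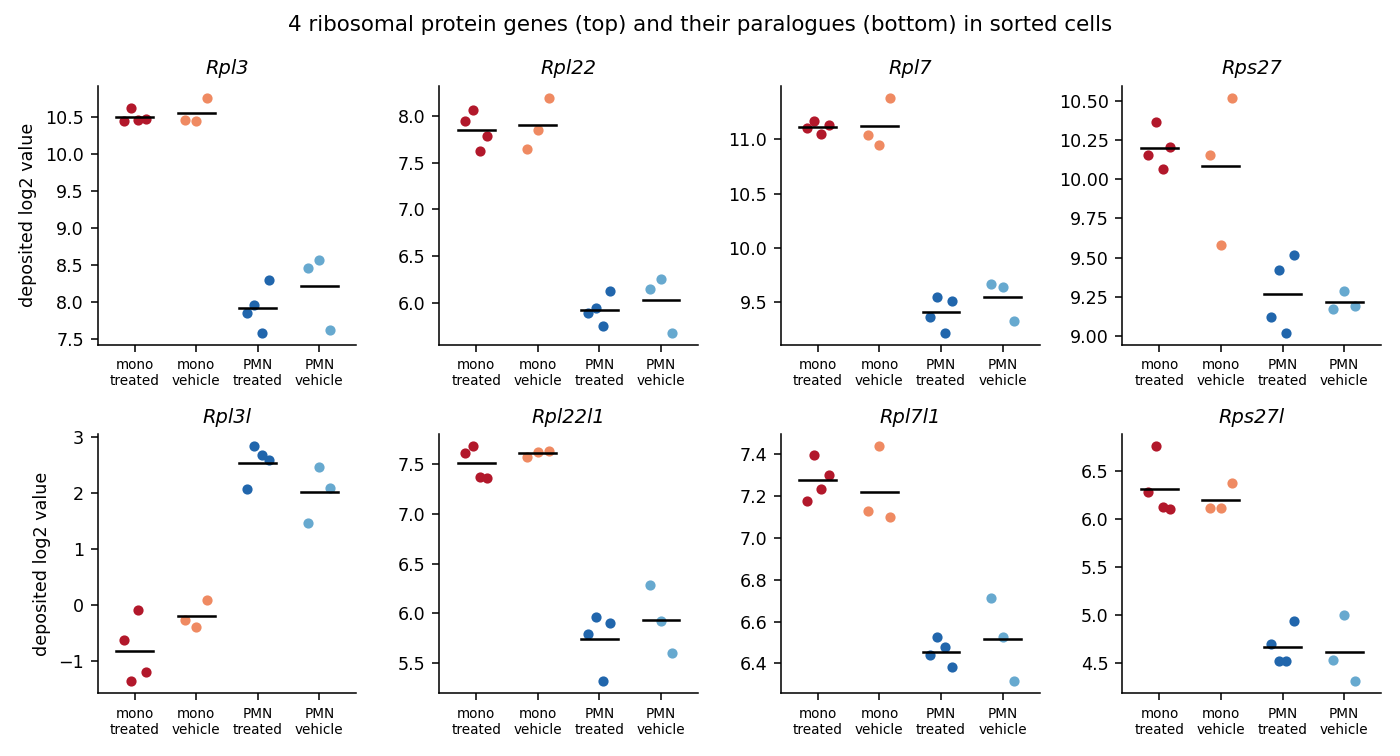
Deposited log2 values of Rpl3, Rpl22, Rpl7 and Rps27 (top) and of their paralogues Rpl3l, Rpl22l1, Rpl7l1 and Rps27l (bottom) in each sorted library, with the group mean as a line; mono stands for monocyte and each panel has its own scale. Rpl3l is the gene whose PMN values, 1.46 to 2.83, lie above its monocyte values, -1.36 to 0.10.

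Medians of genes with and without the TOP tract at the annotated start lay close together. A start annotated a few bases away hides the tract, so genes counted without it may carry it. The part of the tract in the difference was therefore not tested. The median monocyte minus PMN difference of the 13 genes with the tract was 1.74 in treated and 1.76 in vehicle mice, and of the 44 genes with a window but no tract 1.76 and 1.72. The tract-bearing genes ran from 0.93 for Rps27 to 2.38 for Rps18 in treated mice.

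The inhibitor was then compared with vehicle within each sorted population. In monocytes 0 of 77 genes passed the threshold in either direction, as did 0% of all genes (limma). The median difference, treated minus vehicle, was -0.01, as over all genes tested (-0.02), 31 genes had a positive and 46 a negative difference, and 0 genes had an unadjusted p under 0.05. Without both vehicle 3 libraries the monocyte median was 0.07, of the opposite sign. In PMN 0 of 77 passed, against 0% of all genes, and 1 had an unadjusted p under 0.05. The PMN median was -0.08, against 0.00 over all genes, and 65 of 77 differences were negative, while 50.8% of all genes had a positive one. Without both vehicle 3 libraries the PMN median was -0.24, and without vehicle PMN 1 it was -0.01. Erythroid markers (9 of 11 measured) averaged 2.63 to 4.62 in treated PMN and 4.89 to 7.73 in vehicle PMN, without overlap, and all 9 had a negative difference, with 0 past the threshold. In monocytes they averaged 2.90 to 5.07 in treated and 3.23 to 6.56 in vehicle libraries, with overlap. There too all 9 differences were negative, with 0 past the threshold. The part of these markers in the values of either population was not tested. PMN libraries were uneven in both groups: the 2 lower treated libraries (1 and 3) and the lower vehicle library (3) had family medians of 7.83 to 7.96, and the others 8.27 to 8.39.

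Rpl29, a large-subunit protein that mice can live without, had the smallest p in PMN. Its values were 7.15, 7.21, 7.11 and 7.38 in treated PMN and 7.44, 7.55 and 7.69 in vehicle PMN. It was the 1 gene of 77 without overlap, lower in treated PMN, a state met by 1.99% of all genes in that direction and by 1.78% in the other. The difference was -0.35 ± 0.14 with an unadjusted p of 0.0276 in limma and an adjusted p of 1. With its 13 measured sequence copies added it was 0.08, of the opposite sign. In monocytes Rpl29 had 8.92, 9.02, 8.86 and 8.89 in treated and 8.91, 8.97 and 9.53 in vehicle libraries, with vehicle 3 the high one.

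The difference of the treatment effects, monocytes minus PMN, was past the threshold for 0 of 77 genes and for 0% of all genes (limma), with a median of 0.07 against -0.01 over all genes. Without both vehicle 3 libraries that median was 0.30, with 0 genes past the threshold. The 1 gene with an unadjusted p under 0.05 was Rpl3l, which passed the filter on low values only through PMN. It stood at -1.15 ± 0.49 (limma, adjusted p = 0.9998). Its treated minus vehicle difference was -0.62 ± 0.35 in monocytes and 0.53 ± 0.35 in PMN. Over the 77 genes the treated minus vehicle differences ran from -0.62 to 0.12 in monocytes and from -0.35 to 0.53 in PMN. Both treatment comparisons share their libraries with the comparison of monocytes and PMN.

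In tumours the question was whether the family differed after the inhibitor in whole tissue. Of 76 genes 2 were lower in treated tumours and 0 higher, against 1.33% lower and 0.878% higher of the 16296 genes tested (limma, Benjamini-Hochberg adjusted p under 0.05), and all 76 passed the filter (a value of at least 0 in at least 5 libraries). The 2 genes were Rps3a1 and Rpl34. The median difference, treated minus vehicle, was -0.35, against -0.06 over all genes, and 68 of 76 differences were negative, while 45.3% of all genes had a positive one. Unadjusted p was under 0.05 for 25 of the 76 genes and for 3982 of the 16296 genes tested.

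The count of 2 moved with single libraries. It was 0 without treated tumour 4, 1 without treated tumours 2 or 5 or vehicle tumours 1, 2, 3, 4 or 7, 3 without vehicle tumour 6 and 13 without vehicle tumour 5. Family medians were 7.01, 7.38, 7.36, 7.93 and 7.84 in treated tumours and 7.87, 7.71, 7.82, 7.92, 7.45, 7.42 and 7.65 in vehicle tumours. Treated tumour 1 was the lowest, vehicle tumours 5 and 6 were the lowest of their group, and the groups overlapped.

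Markers of other cells were also uneven between the tumour groups. Proliferation genes (12 of 12) averaged 4.22 to 5.77 in treated and 4.29 to 6.35 in vehicle tumours, with vehicle tumour 5 the low one of its group, and all 12 had a negative difference, 1 of them past the threshold. Islet markers (9 of 9) averaged 5.86 to 9.17 in treated and -0.17 to 7.21 in vehicle tumours, with 4 of 9 higher past the threshold. Acinar markers (12 of 12) averaged 6.77 to 11.5 in treated and 3.26 to 11.5 in vehicle tumours, and hepatocyte markers (5 of 8) 1.81 to 11.6 in treated and 0.58 to 5.77 in vehicle tumours, with 0 calls in either list. Every measured fibroblast (6), T cell (5), B cell (5) and class II or dendritic cell (7) marker had a positive difference, with medians of 0.54, 1.46, 1.29 and 0.97, and 1 fibroblast marker passed the threshold. PMN markers (11 of 13) averaged 2.12 to 4.62 in treated and 2.88 to 7.06 in vehicle tumours. The part of these lists in the tumour result was not tested.

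Rps3a1, a small-subunit protein (chromosome 3, 86137940 to 86142702 in GRCm38), had the largest difference. Its values were 8.87, 7.68, 7.42, 8.001 and 7.94 in treated tumours. In vehicle tumours they ran from 9.42 to 11.04 with a median of 10.18. The groups did not overlap, which 1.86% of all genes met in that direction. The difference was -2.25 ± 0.33 (SE, n = 5 against 7; limma, adjusted p = 0.0181), and the adjusted p was 0.0683 without treated tumour 4. With the values of its near-identical sequence copies added, described further on, the difference was -0.30 (limma, adjusted p = 0.502).

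Rpl34, a large-subunit protein, had 5.22, 4.603, 4.65, 4.29 and 5.27 in treated tumours and 5.21 to 7.001 with a median of 6.48 in vehicle tumours. Treated tumours 1 and 5 reached just above the lowest vehicle tumour, number 6. The difference was -1.50 ± 0.32 (limma, adjusted p = 0.0351). With sequence copies added the difference was 0.06 (limma, adjusted p = 0.898). The call was also lost, with an adjusted p of 0.0548 to 0.110, without any of treated tumours 2, 4 and 5 and vehicle tumours 1, 2, 3, 4 and 7.

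The next genes by p-value did not pass. Rpl38, whose loss in mice alters translation of Hox mRNAs, had 4.25 to 4.67 in treated and 4.88 to 5.92 in vehicle tumours, without overlap, and a difference of -0.81 ± 0.20 (limma, adjusted p = 0.0512). Rpl3 stood at -0.92 ± 0.25 (adjusted p = 0.0655), Rplp0 at -0.99 ± 0.29 (0.0794) and Rps10 at -0.58 ± 0.17 (0.0797). The Mdm2-binding genes Rpl5, Rpl11, Rpl23 and Rpl26 had differences of -0.32, -0.53, -0.14 and -0.19, and Rps6, the S6 kinase target, -0.01 ± 0.18. Toward the other end Rpl30, Rps12 and Rps27l stood at 0.31, 0.28 and 0.24, with adjusted p between 0.472 and 0.558. Among the other paralogues Rpl22l1 stood at -0.04 and Rpl7l1 at -0.09, beside -0.25 for Rpl22 and -0.45 for Rpl7.

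Ribosomal protein genes have many processed pseudogenes, copies of the spliced mRNA inserted elsewhere in the genome, and reads from the gene and from a near-identical copy can be split by the counting. The genes' coding sequences were searched against annotated transcripts of pseudogenes, processed or unprocessed, and of genes named as retrocopies. At 85% identity or more over at least 50% of the coding sequence, the search gave 1371 copies of 74 genes. Of these, 281 had values in tumours, for 65 genes, and 218 in sorted cells, for 62 genes. The copies took 70.3% to 77.1% of the family's summed values in treated tumours and 60.03% to 72.6% in vehicle tumours. In sorted cells they took 32.02% to 38.6% in monocytes and 33.8% to 38.7% in PMN. Values of a gene with copies are therefore uncertain. The values are named per length, so these sums are not sums of reads, and how reads were split was not tested. On such a scale a short copy weighs more per read than a longer gene. Rpl34, for example, has 2643 exonic bases, and its copy Rpl34-ps1 aligns over 353.

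Adding each copy's linear value to its gene raised the gene by a median of 2.15 log2 units in tumours and 0.48 in sorted cells. Rps29 and Rps27, the lowest genes of the tumour set at a mean of 2.14 and 3.12, show the extreme. Rps29 has a copy, Gm14303, that is 100% identical over 168 coding bases and averaged 8.95 ± 0.77 in treated and 8.19 ± 0.45 in vehicle tumours (SD, n = 5 and 7). Rps27rt, 100% identical to Rps27 over 252 bases, averaged 9.37 ± 0.73 in treated and 8.76 ± 0.42 in vehicle tumours.

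With copies added no gene passed the threshold in tumours. The median over the 76 genes was -0.02, 38 differences were positive and 38 negative, 0 genes were called in either direction and 7 had an unadjusted p under 0.05 (limma). Rps3a1 then stood at -0.30 (adjusted p = 0.502), Rpl34 at 0.06 (0.898) and Rpl38 at 0.08 (0.840). The family with its copies made up 4.06% to 7.06% of summed values in treated and 5.36% to 7.04% in vehicle tumours, against 1.21% to 1.84% and 1.47% to 2.69% for the genes alone. Between monocytes and PMN, 76 of 77 genes were higher and Rpl3l lower with copies added, with medians of 1.85 in treated and 1.68 in vehicle mice.

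**Figure D4:**
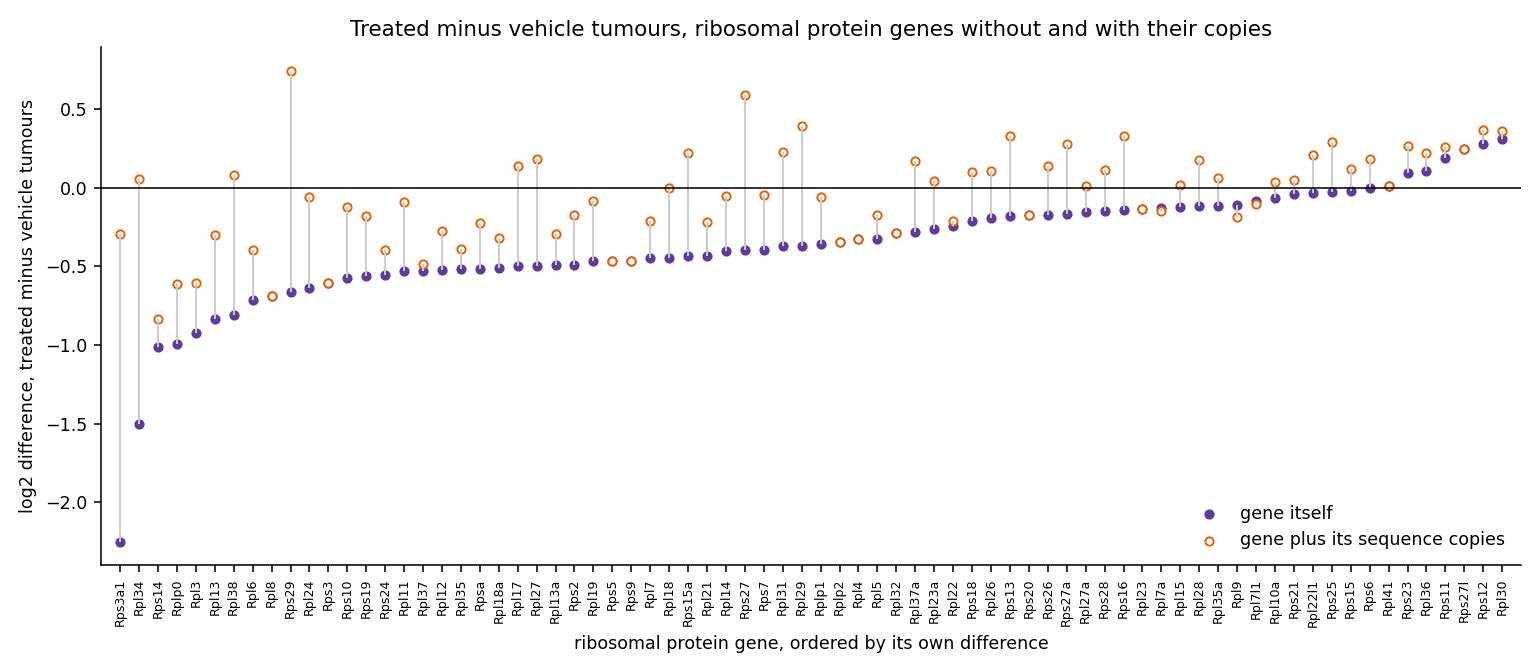
Log2 difference, treated minus vehicle tumours, of ribosomal protein genes alone (filled; genes not reported by name are left out) and with the linear values of its sequence copies added (open), joined by a line and ordered by the gene's own difference. Over all 76 genes the median is -0.35 without and -0.02 with copies, and Rps3a1 and Rpl34, at the left end, move up to -0.30 and 0.06.

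The copies of Rps3a1 show how close the sequences are. Rps3a3 (chromosome 13) is 98.99% identical to the Rps3a1 coding sequence over 791 aligned bases, Rps3a2 (chromosome 14) 99.5% and Gm13408 (chromosome 2) 98.2%. The stretch below is the first window of 60 bases inside a single coding exon that has its first difference at the middle. It is taken from GENCODE M21 transcripts (GRCm38), with the differing base in capitals.
Rps3a1 (chr3:86141348-86141407, minus strand): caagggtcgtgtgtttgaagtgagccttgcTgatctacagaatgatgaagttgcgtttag
Rps3a3 (chr13:108670788-108670847, plus strand): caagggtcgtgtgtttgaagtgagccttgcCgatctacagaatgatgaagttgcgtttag
Outside that base the stretches are identical.

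In tumours Rps3a3 averaged 10.01 ± 0.65 in treated and 9.10 ± 0.56 in vehicle tumours (SD, n = 5 and 7), while Rps3a2 averaged 10.58 ± 0.43 and 10.71 ± 0.32 and Gm13408 8.40 ± 0.53 and 8.82 ± 0.47. The sum of Rps3a1 and its copies averaged 11.65 ± 0.40 in treated and 11.95 ± 0.38 in vehicle tumours.

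In sorted cells both libraries numbered vehicle 3 stood apart in these copies. Rps3a3 ran from 10.40 to 10.64 in treated monocytes and had 11.10, 11.08 and 5.74 in vehicle monocytes, of which 5.74 is library 3. In PMN it ran from 8.09 to 8.79 in treated libraries and had 9.65, 9.77 and 4.39 in vehicle libraries, of which 4.39 is library 3. Rpl34-ps1, 99.4% identical to Rpl34, had a lowest value of 5.63 in vehicle monocytes and 3.78 in vehicle PMN, against 8.68 to 9.06 in treated monocytes and 6.79 to 7.38 in treated PMN. Rps3a1 itself was high in vehicle monocytes 3, at 11.21 against 10.41 and 10.64, and in vehicle PMN its values of 9.08, 9.03 and 9.07 did not set library 3 apart. Of the kits named for sorted cells, the labels do not say which made which library.

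**Figure D5:**
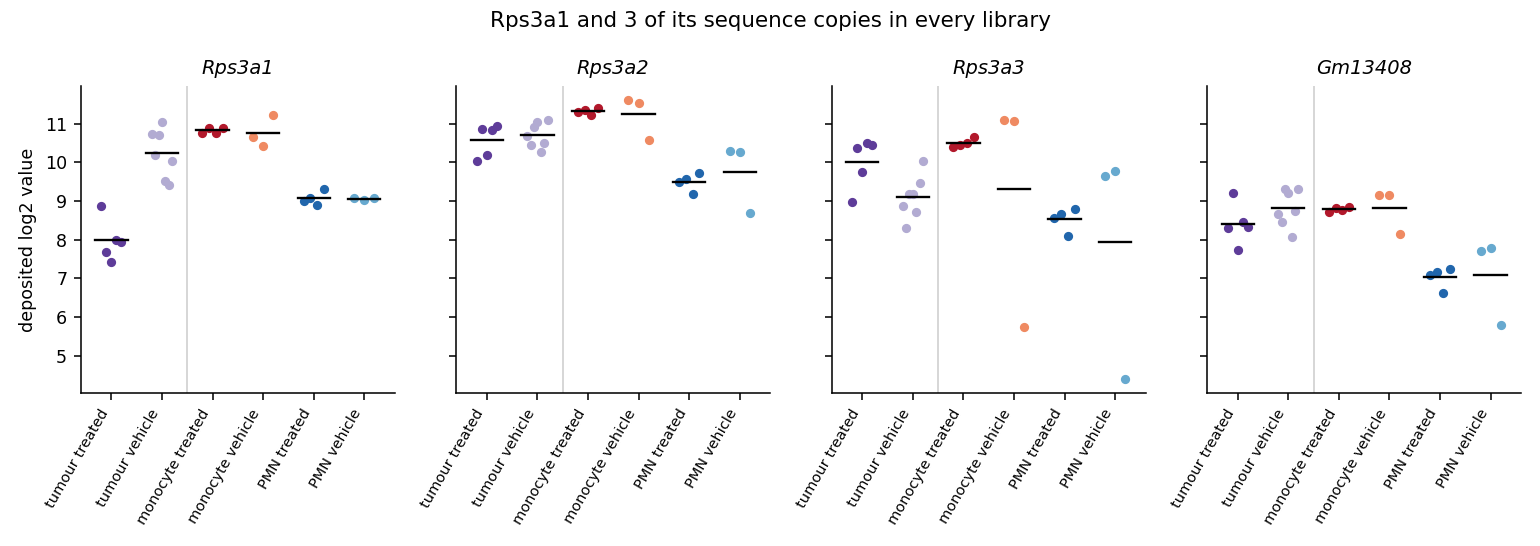
Deposited log2 values of Rps3a1 and of its sequence copies Rps3a2, Rps3a3 and Gm13408 in each library, by group with the mean as a line; tumours stand left of the grey rule and sorted cells right of it, and the 2 sets were scaled apart. Treated tumours are lower in Rps3a1 and 1 vehicle library of monocytes (5.74) and 1 of PMN (4.39) lie far below the rest in Rps3a3.

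Genes that work with the ribosome were read beside the family, from lists drawn up for this comparison. Of 5 measured genes with ribosomal proteins or partners that the symbol rule leaves out, 5 were higher in monocytes in both kinds of mice. Among all genes tested, 37.6% were higher in treated and 32.8% in vehicle mice. Rack1, a scaffold on the small subunit, averaged 10.91 ± 0.09 in treated monocytes and 8.65 ± 0.26 in treated PMN (SD, n = 4 each), a difference of 2.27 ± 0.18 (limma, adjusted p = 4.12e-07). Rpl36al differed by 2.53 ± 0.20 in treated and 2.44 ± 0.23 in vehicle mice. Fau, a ubiquitin-like fusion of the small subunit, differed by 0.57 ± 0.12 and 0.66 ± 0.13, nearer to Rps9 than to the family's median.

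Ribosome biogenesis genes were higher in monocytes for 31 of 35 in treated and 29 of 35 in vehicle mice. In each 1 was lower, and medians were 1.26 and 0.98. For these counts and those below, the shares over all genes were 37.6% higher and 32.1% lower in treated mice. In vehicle mice they were 32.8% and 27.2%. Npm1, a nucleolar chaperone, differed by 2.14 ± 0.23 in treated and 1.88 ± 0.26 in vehicle mice (limma, adjusted p = 3.81e-06 and 6.20e-05). Polr1a, the largest subunit of RNA polymerase I, was lower in vehicle monocytes, by -1.45 ± 0.20 (adjusted p = 6.37e-05). Translation initiation factors were higher for 24 of 28 and 23 of 28 with 0 lower, led by Eif3e at 2.08 and 1.77. Elongation factors and other mRNAs known to carry a TOP tract were higher for 11 of 11 in both, with medians of 1.12 and 1.05, Hnrnpa1 leading at 1.95 and 1.83.

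Mitochondrial ribosomal proteins, which build the separate ribosome of mitochondria, were higher for 67 of 77 in treated and 65 of 77 in vehicle mice, with 1 and 2 lower and medians of 0.97 and 0.95. Of 18 genes that control ribosome production, 4 were higher and 6 lower in treated mice and 3 higher and 6 lower in vehicle mice, with lower calls near the shares of all genes given above (32.1% and 27.2%) and higher calls below theirs (37.6% and 32.8%). Larp1, which binds TOP mRNAs, was higher by 1.74 ± 0.13 and 1.62 ± 0.15 (limma, adjusted p = 2.37e-07 and 2.89e-06), and Rictor, of the mTORC2 complex, was lower, at -1.43 ± 0.13 and -1.36 ± 0.15. Myc, a transcription factor that drives ribosome production, stood at 0.56 ± 0.40 and 0.81 ± 0.47 and did not pass (adjusted p = 0.231 and 0.151).

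After treatment these lists had 0 calls in monocytes and 0 in PMN (limma), where ribosome biogenesis genes had medians of -0.02 in monocytes and -0.24 in PMN. In tumours the calls in these lists were few, 1 lower of 77 mitochondrial ribosomal proteins and 1 lower of 5 genes outside the symbol rule, beside 1.33% of all genes. They were Mrps12, of the mitochondrial small subunit, at -1.28 ± 0.25 (limma, adjusted p = 0.0317) and Rps19bp1, a binding partner of Rps19, at -1.07 ± 0.25 (adjusted p = 0.0462). The tumour medians were -0.55 for ribosome biogenesis (35 genes), -0.34 for initiation (28), -0.46 for elongation (11) and -0.32 for mitochondrial ribosomal proteins (77), beside -0.06 for all genes and, for the family, -0.35 without and -0.02 with sequence copies added. No copies were added to the companion genes. Genes outside the symbol rule had a tumour median of -0.28 (5 genes) and those that control ribosome production -0.09 (19 genes).

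Within groups the genes of the family moved together. The median correlation between 2 members, of deviations from group means, was 0.79 over the 14 sorted libraries and 0.44 over the 12 tumours, values that share each library's scaling and are given as a description. Rpl3l (median correlation with the other members -0.01), Rpl29 (0.23), Rpl7l1 (0.27) and Rps9 (0.28) were the least like the rest in sorted cells. In tumours Rps27l (-0.01), Rps12 (0.00) and Rps16 (0.15) were among the least like the rest.

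Levels per length, on the authors' scale, were ordered alike in the sorted populations (Spearman correlation of mean levels, monocytes with PMN in vehicle mice, 0.94 across 77 genes). They were less alike between vehicle tumours and vehicle monocytes (0.58 across 76 genes, and 0.78 with copies added). Tissue, library preparation and scaling cannot be told apart in that lower value. The highest means in sorted cells were those of Rps9 (11.49), Rplp0 (10.48) and Rps27a (10.45), of which Rplp0 and Rps27a lie within their spread, and the lowest those of Rpl22l1 (6.69), Rps27l (5.46) and Rpl3l (0.88). In tumours the highest were Rpl4 (10.72), Rps3 (10.67) and Rplp0 (10.58), which overlap across libraries, and the lowest Rpl24 (4.46), Rps27 (3.12) and Rps29 (2.14). Rpl4, whose protein lines the exit tunnel of the large subunit, ran from 10.18 to 10.77 in treated and from 10.21 to 11.57 in vehicle tumours.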

How the data were processed

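RNA sequencing values were analysed for 12 tumour and 14 sorted-cell libraries. The authors deposited 1 log2 value per gene and library, named log2 RPKM per the file headers. TopHat2, STAR, limma and the mm10 genome are named per the submitters' processing notes, without versions. Libraries of a set share nearly the same distribution, so the values are not RPKM in scale, the depth per library is unknown and no counting interval is given. For tumours the kit kept strand and depleted ribosomal RNA, per the labels' protocols. Sorted cells were made with either of 2 kits, which kit made which library not being stated.

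Genes were kept where 5 or more tumour libraries, or 3 or more sorted ones, were at 0 or above on the log2 scale. limma 3.58.1 in R 4.3.3 (lmFit, then eBayes with a mean trend) was fitted to all genes of a set, with 2 tumour groups or 4 sorted groups, and p-values were adjusted by Benjamini-Hochberg over all genes tested, with a threshold of 0.05. The procedure was tested on data simulated independently for each gene, which does not cover counts over genes that move together. The treated-mouse comparison of monocytes with PMN and the difference of treatment effects were not simulated. Sequence copies were found with BLAST+ 2.17.0 (at least 85% identity, at least 50% coverage), and their linear values were added to the gene, an alternative chosen after seeing the data, as was leaving out both vehicle 3 libraries. Start windows are RefSeq sequences. In each comparison the genes named were taken from those past the threshold, up to the 8 largest differences in each direction. Where few passed, they were taken from the 6 smallest p-values, and larger differences that did not pass were not all named. Paralogues with their partners, stalk and Mdm2-binding genes, and the highest and lowest levels were added. For each companion list the few largest changes were named, together with Myc, Fau and neighbouring genes chosen after their values were seen. The members and lists were chosen with earlier results of these data known. Alternatives were other filters, log scale, scaling, variance models, array weights, a replicate block and leaving out each library. Genes on X or Y were not analysed here. A few genes are counted but not reported by name here.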

Additional observations from a re-analysis of the deposited data

How the results depend on the processing

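The counts for monocytes against PMN, 76 higher and 1 lower in treated and in vehicle mice, became 75 and 1 under the replicate block in both, because Rps9 then had an adjusted p of 0.0977 in treated and 0.0601 in vehicle mice. Leaving out single libraries gave 75 to 76 higher with medians of 1.75 to 1.89 in treated mice, and 75 to 76 with medians of 1.59 to 1.85 in vehicle mice. Without both vehicle 3 libraries the vehicle-mouse median was 1.48 and the median of the difference of treatment effects 0.30; the cause was not tested. Over single libraries left out, the treated minus vehicle median ran from -0.07 to 0.07 in monocytes and from -0.24 to -0.01 in PMN, and the median difference of treatment effects from -0.00 to 0.24, with 0 calls throughout. In tumours the number lower was 9 with array quality weights, 1 with the replicate block and 0 with sequence copies added, and 0 to 13 over single libraries left out, with medians of -0.42 to -0.28; the median was -0.21 with array quality weights and -0.0221 with copies added. Array quality weights gave a PMN median of -0.16, against -0.08. With copies added the difference was 0.0575 for Rpl34 and 0.0767 for Rpl38 in tumours, and for Rpl29 0.40 in monocytes and 0.0800 in PMN, each of the opposite sign to the gene alone. Of 2114 alternatives for single named genes, 2075 kept their direction and side of the threshold, 27 lost the threshold, 8 passed it newly and these 4 changed direction. Many of these alternatives could hardly change a result. Libraries of a set already share nearly the same distribution, and a library outside a comparison enters only through the shared spread. The tally is therefore not a measure of robustness. Samples of the same number were not taken as paired, since the labels do not say that they are and not every correlation of their deviations exceeded 0.1. For monocytes with PMN these ran from -0.21 to 0.46 (7 pairs); 5 of the 7 libraries, all 3 vehicle ones (0.11 to 0.46) among them, correlated best with their own number, a hint from the data. Correlations were -0.43 to 0.21 for treated with vehicle monocytes (3), 0.02 to 0.05 for PMN (3) and -0.18 to 0.27 for tumours (5).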
